A study of Mus musculus with 88 samples.

Results

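Ung, the main nuclear uracil DNA glycosylase, was selected for its low level 6 h after irradiation, and it is described here with 9 other genes of base excision repair: Smug1, Tdg, Ogg1, Mutyh, Neil3, Apex1, Xrcc1, Lig3 and Parp1. The 10 genes were listed by name, with earlier results of these data known, and Ung alone was picked for its measured value. A probe that measured no other gene was found for 9 of the 10, out of 18067 genes with such a probe, and all 9 passed the filter on dim genes. Tdg shared its only probe with a pseudogene and is not analysed here.

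In base excision repair a DNA glycosylase cuts a damaged or misplaced base from the sugar, an endonuclease opens the backbone at the empty site, and a polymerase and a ligase fill and seal the gap. Ung takes out uracil, which enters DNA through misincorporation during replication or through cytosine deamination, and its transcript is known to be made mainly around the start of DNA synthesis in dividing cells. Ionising radiation produces oxidised bases and single-strand breaks. Ogg1 and the Neil enzymes remove oxidised bases, Apex1 acts at sites that have lost their base, and Parp1 and Xrcc1 act at breaks.

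The data are 88 single-colour oligonucleotide arrays of total RNA from 4 murine tumours grown in the hind legs of C3H/HeNrs mice, with 2 arrays in each of 44 groups. By label, NR-S1 and SCCVII came from squamous cell carcinomas, and NFSa and #8520 from fibrosarcomas, the first spontaneous and the second radiation-induced. Each tumour received a single dose of 30 Gy carbon ions, 30 Gy gamma rays or 50 Gy gamma rays and was sampled at 6 h, day 1 or day 3, and each tumour had untreated arrays in a carbon arm and in a gamma arm. No label ties the pair of arrays in a group to different mice, so each p-value reflects only the variation between these arrays, which may be technical.

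Levels are the deposited normalised intensities, whose array medians lay between 1.02 and 1.07. A response is the mean log2 intensity of the irradiated arrays minus that of the untreated arrays of the same tumour and arm, averaged over the 4 tumours. A gene passed when its limma p-value, Benjamini-Hochberg adjusted over all genes tested, was under 0.05. All tests were two-sided, and the error given after a response is the standard error of the fit (8 irradiated and 8 untreated arrays). Ung has no test at 6 h, because it was chosen on that comparison.

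Some features of the whole series bear on these genes. The squamous markers were bright in NR-S1 alone: Krt5 had a mean untreated intensity of 333 there, 0.326 in SCCVII and 0.307 in NFSa, and the SCCVII marker profile therefore went against its squamous label. After 50 Gy the day 1 and day 3 arrays of SCCVII and #8520, 8 in all, stood apart. Their 1st percentile of intensity lay between 0.297 and 0.378, while it lay between 0.0128 and 0.134 on the remaining 80. The 2 arrays of NR-S1 at day 1 after carbon ions agreed least of all groups, with a correlation of 0.9896 where the highest was 0.998. Array 2 of that pair had the most probes at or below 0, 237. The untreated arrays of the 2 arms also differed from each other, in 60.2% of genes tested. In bulk tumour RNA, fewer cells of a type and less RNA per cell cannot be told apart.

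Ung was lower on every irradiated array than on either untreated array of the same tumour and arm, for each beam, dose and time. In NR-S1 the untreated intensities of the carbon arm were 3.45 and 3.94, and after carbon ions they were 1.05 and 1.06 at 6 h, 2.26 and 2.07 at day 1, and 1.66 and 1.53 at day 3. In the gamma arm of NR-S1 the untreated arrays read 4.99 and 5.52. At 30 Gy of gamma rays the intensities were 2.38 and 2.58 at 6 h, 3.61 and 3.79 at day 1, and 3.73 and 3.90 at day 3. NR-S1 thus kept the highest Ung levels of the 4 tumours after gamma rays. After 50 Gy the NR-S1 arrays read 1.97 and 2.20 at 6 h, 3.05 and 3.02 at day 1, and 3.13 and 3.02 at day 3.

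In SCCVII the untreated Ung intensities were 4.32 and 4.67 in the carbon arm and 3.41 and 3.89 in the gamma arm. After carbon ions SCCVII read 0.986 and 1.03 at 6 h, 1.34 and 1.28 at day 1, and 1.54 and 1.57 at day 3. The 30 Gy gamma-ray arrays read 0.876 and 1.10, then 1.70 and 1.85, then 1.93 and 2.16 at the same times. Both series of SCCVII were lowest at 6 h. The 50 Gy arrays of SCCVII gave 0.830 and 0.904 at 6 h, 1.84 and 1.92 at day 1, and 1.59 and 1.63 at day 3.

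The fibrosarcomas stayed low through day 3. NFSa read 3.19 and 3.17 untreated in the carbon arm, 0.878 and 0.720 at 6 h, 1.24 and 1.08 at day 1, and 0.942 and 0.933 at day 3 after carbon ions. Its gamma arm read 2.80 and 2.56 untreated, 1.19 and 1.16 at 6 h, 0.916 and 1.18 at day 1, and 0.894 and 1.10 at day 3 after 30 Gy. After 50 Gy, NFSa read 0.666 and 0.693, then 1.08 and 1.05, then 0.852 and 0.913. No group of irradiated NFSa arrays reached the lower untreated array of its arm. In #8520 the carbon arm read 3.16 and 3.29 untreated, 1.12 and 1.13 at 6 h, 0.789 and 0.854 at day 1, and 0.720 and 0.796 at day 3. Its gamma arm read 4.07 and 4.19 untreated and 1.14 and 1.10, 1.30 and 1.28, and 1.21 and 1.25 at the 3 times after 30 Gy. In #8520 the carbon series was at its lowest on day 3, unlike the other tumours, where 6 h was lowest. After 50 Gy, #8520 gave 0.853 and 0.703 at 6 h, 1.05 and 1.17 at day 1, and 1.06 and 1.30 at day 3.

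**Figure D1:**
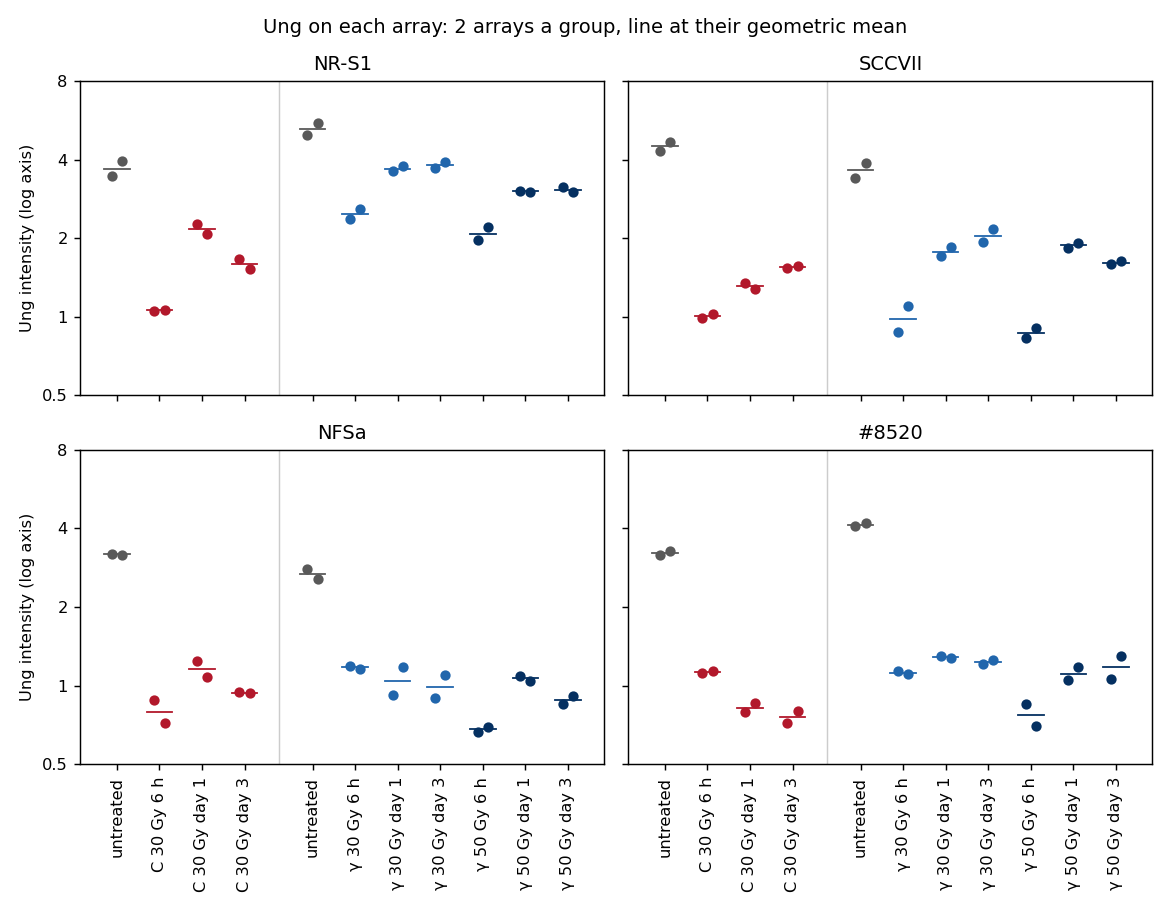
Normalised Ung intensity (log axis) on each of the 88 arrays, by tumour, with untreated arrays in grey, carbon ions in red and gamma rays in blue (darker for 50 Gy); each line marks the geometric mean of the 2 arrays of a group. Every irradiated pair lies below both untreated arrays of its arm, and the gamma-ray groups of NR-S1 at day 1 and day 3 lie nearest to them.

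Averaged over the tumours, Ung was lower by 1.87 ± 0.05 on the log2 scale (SE) at 6 h after carbon ions, which is 3.65-fold. The same difference was -1.51 ± 0.05 after 30 Gy and -1.95 ± 0.05 after 50 Gy gamma rays. These 3 values are the ones Ung was selected on: by size of the drop it stood 1st of 13415 genes after carbon ions, 2nd of 13434 after 30 Gy and 3rd of 13432 after 50 Gy. Ung remained low at the later times, which the selection did not use, although those comparisons share their untreated arrays with the 6 h ones. After carbon ions it fell by 1.49 ± 0.05 at day 1 (limma adjusted p = 7.28e-30) and by 1.65 ± 0.05 at day 3 (adjusted p = 1.26e-32). With 30 Gy gamma rays it fell by 1.15 ± 0.05 at day 1 (limma adjusted p = 1.18e-24) and by 1.12 ± 0.05 at day 3 (adjusted p = 1.35e-24). After 50 Gy it fell by 1.24 ± 0.05 at day 1 (limma adjusted p = 1.75e-26) and by 1.34 ± 0.05 at day 3 (adjusted p = 2.64e-28). Over NR-S1 and NFSa alone, without the tumours whose 50 Gy arrays stood apart, those 50 Gy falls were 1.06 and 1.19.

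On average over the tumours, the Ung response was deeper after carbon ions than after the same dose of gamma rays. The difference between beams was -0.35 ± 0.08 at day 1 (limma adjusted p = 3.83e-04) and -0.53 ± 0.08 at day 3 (adjusted p = 1.11e-07), and it was -0.36 at 6 h, which was not tested. At 6 h #8520 went the other way: its response was smaller after carbon ions (-1.52) than after 30 Gy gamma rays. Whether the beam difference of Ung varied between tumours was not tested. Between 30 and 50 Gy of gamma rays Ung differed by -0.22 ± 0.05 at day 3 (limma adjusted p = 3.56e-04). The dose difference at day 1 was -0.10 ± 0.05 and did not pass (limma adjusted p = 0.112). From day 1 to day 3 Ung fell by a further 0.15 ± 0.05 after carbon ions (limma adjusted p = 0.0103). Over the same days it differed by 0.03 after 30 Gy and by -0.10 after 50 Gy, and neither passed (limma adjusted p = 0.718 and 0.129).

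The size of the Ung response differed between tumours at day 1 and day 3 for each beam and dose (limma moderated F test, adjusted p from 6.35e-10 to 1.87e-05). The smallest drop was that of NR-S1 at day 3 after 30 Gy gamma rays, -0.46, where #8520 stood at -1.75, NFSa at -1.43 and SCCVII at -0.83. NR-S1 also had the smallest response at day 1 after carbon ions, -0.77, against -1.97 in #8520. The largest drop of the series was -2.41, in #8520 at 6 h after 50 Gy. At 6 h after carbon ions the order was different: SCCVII was at -2.16, NFSa at -2.00, NR-S1 at -1.80 and #8520 at -1.52. With NR-S1 left out, the responses at day 1 and day 3 were -1.74 and -1.79 after carbon ions and -1.36 and -1.34 after 30 Gy gamma rays.

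The stretch before the annotated start of Ung is shown because the genes whose pattern was most like that of Ung, described further on, include many genes of DNA replication. The sequences are those of RefSeq for assembly GRCm38.p6, read 5′ to 3′ on the strand of the gene: 181 bases of chr5:114130185-114130365 (plus strand) for Ung, 250 bases of chr8:53639066-53639315 (minus strand) for Neil3, the other glycosylase that fell most, and 250 bases of chr1:128359706-128359955 (minus strand) for Mcm6, a replication helicase subunit and one of the genes most like Ung. Capitals mark the letters searched for on both strands: the E2F-type letters TTTCCCGC, TTTGGCGC, TTTCGCGC and TTTGCCGC, the CHR letters TTTGAA, the CCAAT box and the GC box GGGCGG. Some of these overlap in Mcm6.
Ung: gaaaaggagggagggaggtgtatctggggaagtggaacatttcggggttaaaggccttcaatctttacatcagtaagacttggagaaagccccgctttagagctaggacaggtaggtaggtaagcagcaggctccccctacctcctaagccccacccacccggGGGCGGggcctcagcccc
Neil3: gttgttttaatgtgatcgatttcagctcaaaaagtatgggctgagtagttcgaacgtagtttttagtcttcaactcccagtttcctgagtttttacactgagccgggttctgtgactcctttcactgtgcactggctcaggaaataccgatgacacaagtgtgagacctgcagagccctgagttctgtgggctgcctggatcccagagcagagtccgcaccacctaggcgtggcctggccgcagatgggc
Mcm6: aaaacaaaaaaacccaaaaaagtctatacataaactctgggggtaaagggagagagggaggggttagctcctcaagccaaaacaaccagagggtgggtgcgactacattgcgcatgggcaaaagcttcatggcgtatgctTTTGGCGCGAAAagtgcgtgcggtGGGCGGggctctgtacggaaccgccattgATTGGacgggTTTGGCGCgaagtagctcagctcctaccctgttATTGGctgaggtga
The Mcm6 stretch holds 3 matches to the E2F-type letters, 2 of them overlapping, while the Neil3 stretch holds none of the 4 letter groups and the Ung stretch holds a GC box. The counts that follow use the table's own windows of 250 bases before the start. That start is not always the first annotated base of the gene. The windows of Cdc6, E2f1 and Smug1 lie inside the annotated gene, and some others run into it. The E2F-type match of Cdc6 is in such a window. For Ung the window ends downstream of the gene's first annotated base, where the printed stretch stops. It holds 2 GC boxes, 1 of them in the printed stretch. E2F-type letters were found in 0 of the 10 listed genes, in 7 of 18 DNA synthesis genes and in 3 of the 8 genes most like Ung, against 1.86% of 32851 promoters in the table. Mcm6, the gene printed above, had the most matches of those 8, so its stretch is not typical of them. Ccne1 and E2f1, which were most like Ung, had none, nor had Pradc1, Mcm3 and Mcm2. GC box letters were found in 5 of the 10 listed genes and in 32.7% of all promoters. A match describes letters only, and a missing match says only that these letters are not in this window.

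The other 8 measured genes fell with Ung in part. None of them rose in any of the 9 responses. Under other settings Xrcc1 rose: by 0.24 at day 1 after 50 Gy under quantile normalisation (limma adjusted p = 1.60e-05), by 0.19 there over NR-S1 and NFSa (0.0399), and by 0.11 at day 1 after carbon ions against the untreated arrays of both arms (0.0298). After carbon ions 4 of the 8 fell at 6 h, 2 at day 1 and 8 at day 3, where 19.5%, 16.6% and 41.8% of all genes tested fell. Their median response was -0.16, -0.08 and -0.60 at the 3 times, against -0.01, 0.01 and -0.08 over all genes. After 30 Gy gamma rays 4, 6 and 7 of the 8 fell, where 18.4%, 21.7% and 30.9% of all genes fell, and their medians were -0.10, -0.19 and -0.36. After 50 Gy 6, 7 and 8 fell, beside 26.9%, 45.1% and 44.7% of all genes, with medians of -0.30, -0.25 and -0.50.

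**Figure D2:**
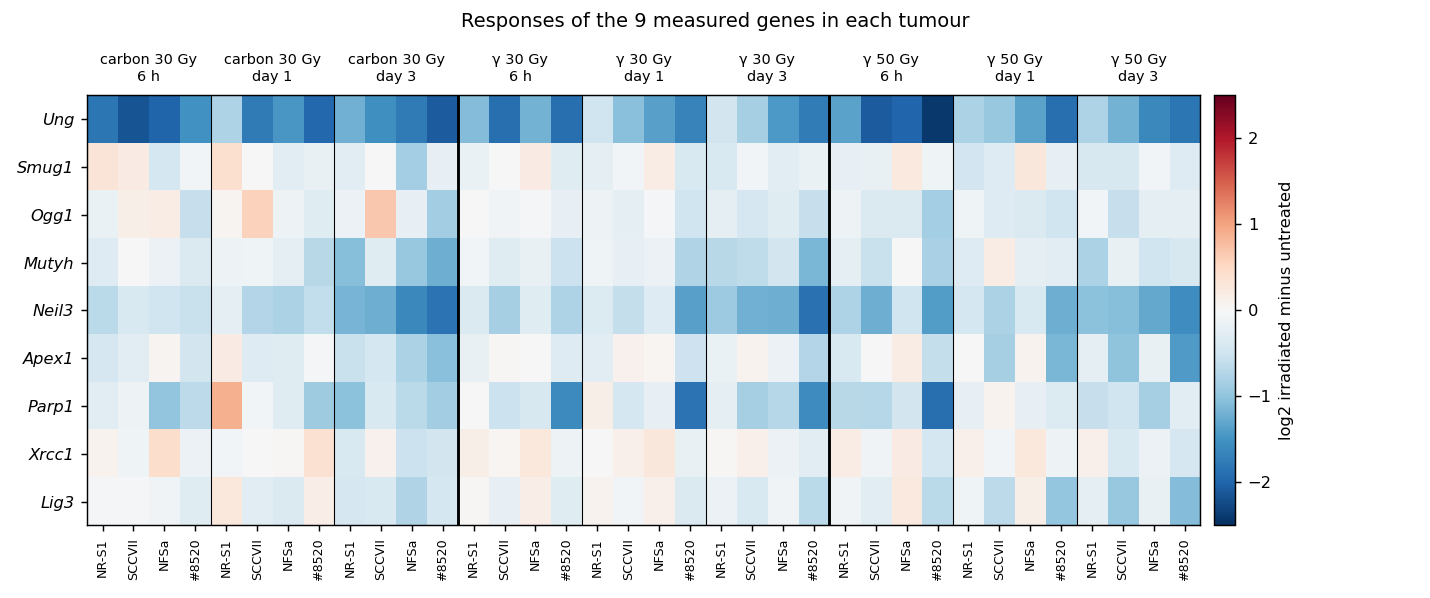
Response (log2 irradiated minus untreated, colour) of the 9 measured genes in each tumour, for each beam, dose and time. The Ung row is blue throughout, from -0.46 to -2.41; Neil3 is below 0 in all 36 columns, and Smug1 and Xrcc1 hold both colours at 6 h and day 1.

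Among the glycosylases, Neil3 fell with Ung in every response. Neil3 removes oxidised pyrimidines and hydantoins and is expressed mainly in proliferating cells. Its untreated intensities in the carbon arm ran from 4.92 to 11.7 with a median of 7.598 (8 arrays). After carbon ions the lowest, median and highest intensities were 3.09, 5.66 and 7.68 at 6 h, 3.801, 4.89 and 7.25 at day 1, and 2.18, 2.91 and 3.15 at day 3. By day 3 no irradiated array overlapped the untreated ones, and within each tumour both irradiated arrays lay below both untreated arrays at all 3 times. Neil3 fell by 0.53 ± 0.04 at 6 h, 0.60 ± 0.04 at day 1 and 1.46 ± 0.04 at day 3 (limma adjusted p = 5.01e-15, 5.17e-17 and 2.79e-34). Gamma rays at 30 Gy gave Neil3 falls of 0.57, 0.65 and 1.30, and after 50 Gy they were 0.97, 0.71 and 1.23. From day 1 to day 3 after carbon ions Neil3 fell by a further 0.86 ± 0.04 (limma adjusted p = 4.34e-24) and Ung by 0.15 ± 0.05; the difference between the 2 genes was not tested. By day 3 after 30 Gy gamma rays Neil3 stood 22nd of 13432 genes by size of the drop and Ung 47th.

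Smug1 also removes uracil, in a separate enzyme family. It did not follow Ung at the early times. Its lowest, median and highest untreated intensities were 1.27, 1.67 and 2.85 in the carbon arm, and at 6 h after carbon ions they were 1.37, 1.79 and 2.08. The irradiated range lay inside the untreated one. The Smug1 response at 6 h was 0.01 ± 0.05 after carbon ions, -0.07 ± 0.05 after 30 Gy and -0.06 ± 0.05 after 50 Gy gamma rays, and none passed (limma adjusted p = 0.896, 0.241 and 0.286). At day 3 Smug1 fell by 0.33 after carbon ions, 0.22 after 30 Gy and 0.30 after 50 Gy (limma adjusted p = 7.25e-09, 4.57e-05 and 8.37e-08). In single tumours the Smug1 response to carbon ions at 6 h ran from -0.43 in NFSa to 0.33 in NR-S1. Its day 1 falls of 0.12 after 30 Gy and 0.18 after 50 Gy did not pass without NR-S1 (-0.09 and -0.08) or under quantile normalisation (-0.09 and -0.01), and the second did not pass over NR-S1 and NFSa (-0.09). The 30 Gy fall was also lost without array 1 of untreated #8520, array 3 of #8520 or of SCCVII at day 1, or array 2 of untreated SCCVII or NR-S1.

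Ogg1 and Mutyh act on the same lesion: Ogg1 cuts out oxidised guanine, and Mutyh takes away adenine paired with it. Mutyh fell in all 9 responses, by 0.21, 0.29 and 0.88 at the 3 times after carbon ions, by 0.27, 0.30 and 0.73 after 30 Gy, and by 0.40, 0.16 and 0.47 after 50 Gy. Its untreated carbon-arm intensities were low, from 0.518 to 0.995 with a median of 0.794, and at day 3 after carbon ions they ran from 0.337 to 0.507 with a median of 0.402, below every untreated array. At 6 h after carbon ions 1 of the 8 Mutyh values was missing, and the fit used the other 7. That Mutyh response did not pass without array 2 of untreated NFSa (-0.18) or without NR-S1 (-0.17). The Mutyh fall at day 1 after 50 Gy was -0.03 against the untreated arrays of both arms (limma adjusted p = 0.614), between which Mutyh differed by 0.26. It also did not pass with each array centred on its median (-0.14), without NR-S1 (-0.11) or without any of 7 arrays: untreated NFSa 1, #8520 2, SCCVII 2 and NR-S1 1, and NFSa 3, #8520 3 and SCCVII 4 at day 1.

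Ogg1 did not pass at 6 h or day 1 after carbon ions (-0.10 ± 0.06 and 0.05 ± 0.06). It passed weakly at day 3, at -0.13 ± 0.06 (limma adjusted p = 0.0358), and the call was lost without NR-S1 (-0.13) and without any of 8 arrays, with values from -0.13 to -0.09: array 1 of untreated NR-S1, SCCVII, #8520 and NFSa, array 2 of NR-S1, SCCVII and #8520 at day 3, and array 1 of NFSa at day 3. Its tumours went different ways: at day 3 after carbon ions Ogg1 stood at 0.67 in SCCVII and at -0.86 in #8520, with -0.20 in NFSa and -0.15 in NR-S1. Ogg1 after 30 Gy gamma rays fell by 0.22 at day 1 and 0.39 at day 3. After 50 Gy it fell by 0.42 at 6 h, 0.32 at day 1 and 0.27 at day 3. Under quantile normalisation the day 1 and day 3 values were -0.10 and -0.09 and neither passed (limma adjusted p = 0.113 and 0.145), nor did the day 3 value over NR-S1 and NFSa, -0.14 (0.152).

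Apex1, the main endonuclease at sites that have lost their base, had the brightest probe of the group and a moderate response. Its lowest, median and highest untreated intensities in the carbon arm were 59.7, 65.5 and 71.6, and after carbon ions they were 45.7, 54.8 and 66.1 at 6 h, 48.4, 58.2 and 87.7 at day 1, and 33.0, 40.8 and 48.8 at day 3. Only the day 3 arrays were separate from the untreated ones. Apex1 fell by 0.27 ± 0.05 at 6 h (limma adjusted p = 3.23e-05) and by 0.70 ± 0.05 at day 3 (adjusted p = 1.49e-17), and at day 1 it stood at -0.11 (adjusted p = 0.0748). That day 1 value passed as a fall under quantile normalisation (-0.23), with each array centred on its median (-0.12) and without NR-S1 (-0.22). It also passed without array 1 of untreated NR-S1 (-0.14) or array 2 of NR-S1 at day 1 (-0.17). The falls of Apex1 after 30 Gy gamma rays were 0.13, 0.16 and 0.24. The Apex1 fall at 6 h after 30 Gy (limma adjusted p = 0.0483) was lost without NR-S1 (-0.11) and without any of 11 of the 16 arrays, with values from -0.13 to -0.08. It held without untreated NFSa 2, #8520 1 or NR-S1 1, or without #8520 2 or SCCVII 2 at 6 h. It was also lost with each array centred on its median (-0.12, limma adjusted p = 0.0618) and with no filter on dim genes (-0.13, 0.0579). Apex1 did not pass there either with an intensity trend and robust prior in the variance model (limma adjusted p = 0.0508), or with only the arrays compared (0.105). Its day 1 fall after 30 Gy did not pass without NR-S1 (-0.12) or without array 2 of untreated #8520 (-0.11), and its 6 h fall after 50 Gy did not pass without NR-S1 (-0.14).

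Parp1 binds strand breaks and marks the site with poly(ADP-ribose), and its response differed widely between tumours. Its untreated intensities in NFSa were 13.4 and 14.0 in the carbon arm but 5.79 and 4.91 in the gamma arm, and over the 4 tumours the untreated arms differed by 0.18 ± 0.05 (limma adjusted p = 3.58e-03). Both irradiated arrays at 6 h after carbon ions lay below both untreated arrays in each tumour, and Parp1 fell by 0.51 ± 0.05 (limma adjusted p = 2.70e-11). At day 1 its response was -0.10 (limma adjusted p = 0.156), with NR-S1 at 0.90, SCCVII at -0.08, NFSa at -0.31 and #8520 at -0.89. NR-S1 moved from untreated intensities of 5.17 and 4.27 to 8.24 and 9.30 on that day, and then to 2.498 and 2.13 at day 3. The NR-S1 arrays of day 1 were the pair that agreed least. With NR-S1 left out, Parp1 fell by 0.43 at day 1 (limma adjusted p = 1.42e-07), and the number of the 8 genes that fell on that day was 6. At day 3 Parp1 fell by 0.74 ± 0.05.

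At 30 Gy of gamma rays the largest Parp1 responses were those of #8520. Its untreated arrays in the gamma arm read 10.03 and 10.5, and after 30 Gy they read 3.08 and 3.798 at 6 h, 2.92 and 2.83 at day 1, and 3.31 and 3.64 at day 3. NR-S1, with 5.69 and 6.18 untreated, read 5.85 and 5.91 at 6 h and 6.59 and 6.61 at day 1. In #8520 the 2 groups of arrays were far apart at each time, and in NR-S1 they overlapped at 6 h. Averaged over the tumours, Parp1 fell after 30 Gy by 0.64, 0.58 and 0.84 at 6 h, day 1 and day 3. After 50 Gy Parp1 fell by 0.94 at 6 h, 0.16 at day 1 and 0.54 at day 3. The day 1 fall after 50 Gy became a value of 0.07 under quantile normalisation.

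Xrcc1, the scaffold of single-strand break repair, and Lig3, the ligase that it holds, changed mainly at day 3. Xrcc1 did not pass at 6 h or day 1 for any beam or dose, with responses between -0.03 and 0.09, apart from the rises at day 1 under other settings given above. At day 3 it fell by 0.32 ± 0.05 after carbon ions (limma adjusted p = 5.68e-07) and by 0.20 ± 0.05 after 50 Gy (adjusted p = 4.75e-04). The 50 Gy fall did not pass under quantile normalisation (-0.03) or over NR-S1 and NFSa (-0.01, limma adjusted p = 0.962). At day 3 after 30 Gy its response was -0.07 (limma adjusted p = 0.285). The Xrcc1 intensities at day 3 after carbon ions ran from 11.2 to 26.4 with a median of 16.2, and the untreated ones from 15.8 to 28.1 with a median of 21.3, so the 2 sets overlapped across tumours. Lig3 fell by 0.50 ± 0.05 at day 3 after carbon ions, 0.32 ± 0.05 after 30 Gy and 0.61 ± 0.05 after 50 Gy (limma adjusted p = 6.43e-12, 8.89e-07 and 1.00e-14). At 6 h its responses were -0.11 after carbon ions and -0.08 after 30 Gy, neither of which passed, and -0.20 after 50 Gy, which did. At day 1 Lig3 passed after 50 Gy alone, at -0.40. Both genes have a further probe whose mean signal ranked at or below the 14.2 percentile of genes; it was left out for its dimness. With the mean of both probes the Lig3 response to carbon ions at day 3 was -0.24 and that of Xrcc1 -0.04, and neither passed. The other Lig3 calls were lost with it too, at -0.18 at day 3 after 30 Gy and at -0.10, -0.02 and -0.05 at the 3 times after 50 Gy (limma adjusted p from 0.397 to 0.914).

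The tumours were compared for each response. After carbon ions the F test between tumours passed for 5, 8 and 7 of the 8 genes at 6 h, day 1 and day 3, beside 44.99%, 58.3% and 61.9% of all genes. For 30 Gy gamma rays it passed for 4, 7 and 5, beside 36.9%, 52.4% and 55.96%. After 50 Gy it passed for 8, 5 and 8, beside 59.6%, 76.5% and 77.05%. The untreated levels also differed between tumours for all 9 measured genes, Ung included, and for 91.3% of all genes.

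Between beams at 30 Gy, none of the 8 genes differed at 6 h by the adjusted test, where 15.9% of all genes did. At day 1, 2 were higher after carbon ions than after gamma rays (25.1% of all genes differed in either direction): Ogg1 by 0.27 ± 0.08 (limma adjusted p = 0.0105) and Parp1 by 0.49 ± 0.08 (adjusted p = 2.05e-06). At day 3, 4 of the 8 differed, where 35.99% of all genes did. Apex1 was lower after carbon ions by 0.47 ± 0.07 (limma adjusted p = 8.18e-07), Xrcc1 by 0.25 ± 0.07 (6.53e-03 in the same test) and Neil3 by 0.16 ± 0.06 (0.0356), while Ogg1 was higher by 0.25 ± 0.08 (0.0124). Without NR-S1 the Neil3 difference was -0.13 and that of Xrcc1 -0.19, and neither passed, while Parp1 was higher after carbon ions by 0.25 at 6 h (limma adjusted p = 0.0476) and by 0.39 at day 3 (6.55e-04), from 0.12 and 0.10 over 4 tumours. The Neil3 difference was also lost without any of 11 of its 32 arrays, with values from -0.15 to -0.14: after carbon ions array 2 of NR-S1, SCCVII and NFSa; after gamma rays array 1 of NFSa and NR-S1 and array 2 of SCCVII; and untreated #8520 1 and NFSa 2 of the carbon arm and NFSa 2, #8520 2 and SCCVII 1 of the gamma arm. Leaving out array 2 of NR-S1 after gamma rays took the Ogg1 difference to 0.19 (limma adjusted p = 0.0501), and under quantile normalisation the Ogg1 differences at day 1 and day 3 were 0.17 and 0.18 and did not pass. Each beam was set against its own untreated arm, and those arms differed for Mutyh (-0.26, carbon minus gamma) and Parp1 (0.18).

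Markers of leukocytes and of skeletal muscle also differed between the beams. Of 9 leukocyte markers tested, 6, 7 and 8 were higher after carbon ions than after gamma rays at 6 h, day 1 and day 3, with median differences of 0.34, 1.05 and 1.19, and 1 was lower, at day 3. Of all genes, 15.9%, 25.1% and 35.99% differed between beams in either direction. At day 1 the median response of the leukocyte markers was 0.07 after carbon ions and -0.41 after 30 Gy gamma rays. At day 3, 8 of the 9 rose and 1, Cd79a, fell after carbon ions, with a median response of 1.31, and the summed intensity of 12 markers ran from 91.9 to 479 there against 49.9 to 107 on the untreated arrays of that arm. With 30 Gy gamma rays 5 rose and 2 fell at that time, with a median of 0.13 and sums from 58.4 to 148 against 58.0 to 164. At day 3, 26.4% of all genes rose and 41.8% fell after carbon ions, and 23.1% rose and 30.9% fell after 30 Gy gamma rays. Cd3e and Cd8a were among the markers left out as dim. Of the 3 muscle markers Acta1, Ckm and Tnnt3, 3 were lower after carbon ions than after gamma rays at 6 h and 3 higher at day 1 and at day 3, with median differences of -0.57, 0.82 and 0.78, and 3 were higher in the untreated carbon arm than in the gamma arm (median 0.51). In the responses themselves all 3 rose at 6 h, with medians of 0.42 after carbon ions, 0.99 after 30 Gy and 1.39 after 50 Gy, and all 3 rose at day 1 after carbon ions (0.79). All 3 fell at day 3 after 30 Gy (-0.67) and at day 1 after 50 Gy (-0.36), and rose at day 3 after 50 Gy (0.43). Their summed intensity ran from 125 to 244 on the untreated arrays of the carbon arm and from 9.47 to 303 on those of the gamma arm. The part of either tissue in the values of the repair genes was not tested.

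Between 50 and 30 Gy of gamma rays at 6 h, 3 of the 8 genes were lower after the higher dose and none was higher (27.1% of all genes differed). Neil3 was lower by 0.40 ± 0.04, Ogg1 by 0.34 ± 0.06 and Parp1 by 0.30 ± 0.05 (limma adjusted p = 7.85e-11, 4.09e-06 and 1.64e-05). At day 1, 3 genes differed (62.8% of all genes did): Apex1 at -0.31 and Lig3 at -0.35 were lower and Parp1 at 0.42 was higher after 50 Gy. At day 3, 5 differed (59.5% of all genes): Apex1, Lig3 and Xrcc1 at -0.47, -0.29 and -0.14, and Mutyh and Parp1 at 0.26 and 0.30. The arrays that stood apart are those of SCCVII and #8520 in these later comparisons. Under quantile normalisation Xrcc1 at day 3 after 50 Gy was -0.03 and did not pass. The Xrcc1 dose difference did not pass without array 2 of SCCVII or array 1 of NR-S1 after 30 Gy, or array 1 of SCCVII after 50 Gy (-0.12 each). Over NR-S1 and NFSa alone 0 of the 8 passed at day 1 and 0 at day 3, and the responses to 50 Gy at day 1 became 0.05 for Apex1 and 0.02 for Lig3, from -0.47 and -0.40.

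From day 1 to day 3 after carbon ions all 8 genes fell, where 45.3% of all genes fell, and Neil3, Parp1, Apex1 and Mutyh fell most, by 0.86, 0.64, 0.59 and 0.59. After 30 Gy gamma rays 5 of the 8 fell over the same days (24.8% of all genes). From 6 h to day 3, 7 fell after carbon ions (41.1% of all genes) and 7 after 30 Gy (29.6%). These steps use no untreated array. Ung at day 3 stood 0.22 above its 6 h level after carbon ions and 0.39 above it after 30 Gy, which was not tested because the 6 h level chose the gene.

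The genes most like Ung were ranked by the Pearson correlation of log2 group means, each centred on its tumour, over the 44 groups. The groups share tumours, and the ranking is a description. The 8 highest were Ccne1 (r = 0.76), which drives entry into DNA synthesis, E2f1 (0.74), a transcription factor of that step, Pradc1 (0.74), Cdc6 (0.74), which loads the replication helicase, Cdca7 (0.74), and the helicase subunits Mcm3 (0.71), Mcm6 (0.71) and Mcm2 (0.70). Each of the 8 fell in all 9 responses, and each drop was smaller than that of Ung. These falls follow in part from the choice. The 8 were picked for likeness to Ung over these same groups, and Ung for its large fall. They ranged at 6 h after carbon ions from -0.49 for Ccne1 to -1.03 for Cdca7. At day 3 after carbon ions Cdca7 fell by 1.42, Mcm3 by 1.29 and Cdc6 by 1.27. At the other end of the ranking stood Ccng1, a target of p53, at -0.83.

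Of the listed genes Neil3 was nearest to Ung, at r = 0.65 and rank 23 of 13464. Mutyh followed at 0.48 (rank 301), Parp1 at 0.45 (rank 404), Lig3 at 0.37, Apex1 at 0.37, Ogg1 at 0.21, Smug1 at 0.20 and Xrcc1 at 0.06 (rank 5261). The highest value among the repair genes themselves was that of Apex1 with Lig3, at 0.88, and both were low on the 8 arrays that stood apart. Neil3 had 0.71 with Mutyh and 0.69 with Lig3.

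The neighbours of Ung on the chromosome had other responses. Alkbh2, a repair gene for alkylated bases whose annotation overlaps the start of Ung, had responses of 0.05, 0.02 and -0.22 at the 3 times after carbon ions, and only the last passed (limma adjusted p = 3.96e-05). Acacb, on the other side, was higher by 0.68, 0.78 and 0.72, and each passed. After 30 Gy gamma rays Acacb stood at 0.77, -0.21 and -0.33, and only the first passed. After 50 Gy it was higher by 1.11, 0.33 and 0.81, and each passed. Alkbh2 stood at 0.10, -0.08 and -0.15 after 30 Gy, where the last passed, and at 0.02, -0.26 and -0.30 after 50 Gy, where the later 2 passed.

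**Figure D3:**
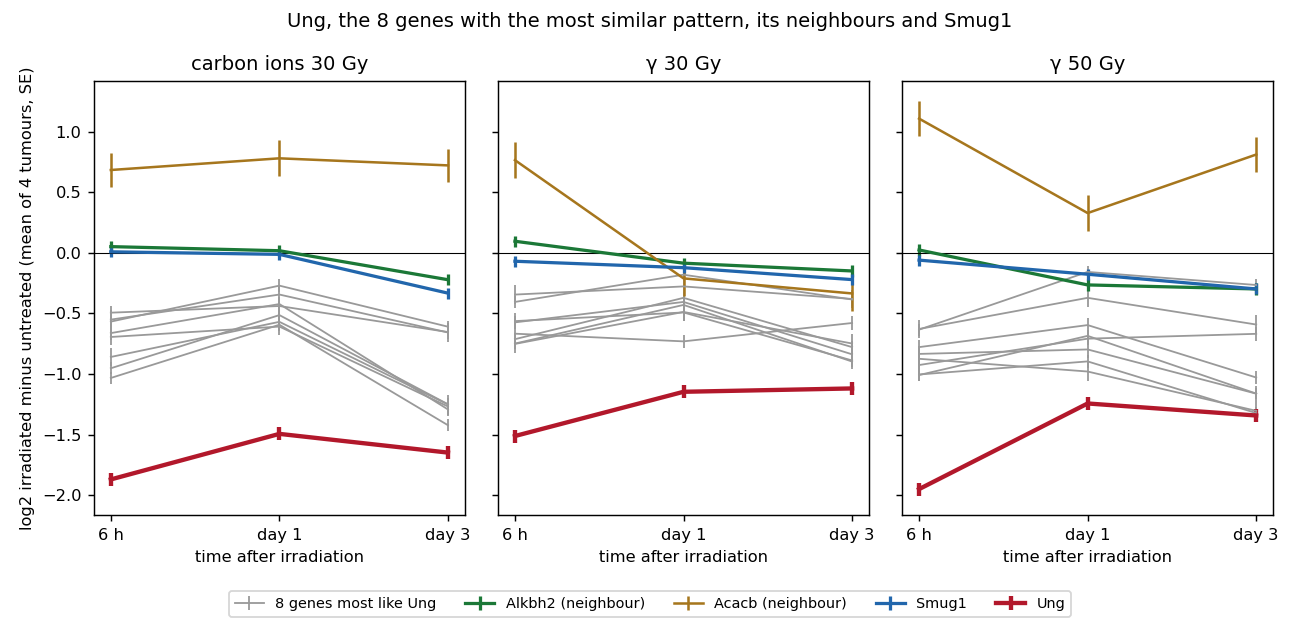
Responses (log2, mean of 4 tumours, bars are SE) at 6 h, day 1 and day 3 for Ung in red, the 8 genes most like it in grey, its neighbours Alkbh2 and Acacb, and Smug1, in panels by beam and dose. Ung lies below the other lines at 6 h and day 1 in each panel, while Smug1 and Alkbh2 stay near 0 at 6 h.

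DNA synthesis and mitosis genes give the setting in which Ung and Neil3 fell. Of 18 DNA synthesis genes tested, 17, 16 and 18 fell after carbon ions at the 3 times, beside 19.5%, 16.6% and 41.8% of all genes. After 30 Gy 16, 16 and 18 fell, beside 18.4%, 21.7% and 30.9%. All 18 fell at each time after 50 Gy, beside 26.9%, 45.1% and 44.7%. The DNA synthesis medians after carbon ions were -0.62, -0.37 and -1.25. Of 20 mitosis genes, 19 fell at 6 h after carbon ions, 5 fell and 4 rose at day 1, and 20 fell at day 3, with medians of -0.92, -0.04 and -1.36. The same shares of all genes fell, and 25.5% of all genes rose at day 1. The mitosis medians at day 1 were -0.03 after 30 Gy and -0.27 after 50 Gy, where 7 and 13 of the 20 fell. By size of the drop Ung stood 1st of 13417 genes at day 1 after carbon ions, 36th of 13427 after 30 Gy and 99th of 13430 after 50 Gy. At day 3 it stood 22nd, 47th and 111th. The DNA synthesis median of NR-S1 at day 1 was 0.11 after carbon ions, with Ung at -0.77, on the pair of arrays that agreed least. The 3 p53 targets Cdkn1a, Mdm2 and Ccng1 all rose in 8 of the 9 responses, and at day 3 after 50 Gy Mdm2 did not pass.

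Enzymes that keep uracil and oxidised bases out of the nucleotide pool were measured beside them. Dut, which destroys dUTP, fell at all 3 times after carbon ions, by 0.36, 0.34 and 0.88. After 30 Gy gamma rays it fell at day 3 alone, by 0.31, and after 50 Gy at all 3 times, by 0.39, 0.54 and 0.75. Dctpp1, which removes modified dCTP, fell by 0.35, 0.57 and 1.06 after carbon ions. With gamma rays Dctpp1 did not pass at 6 h (0.01 after 30 Gy and -0.04 after 50 Gy). At day 1 and day 3 it fell by 0.37 and 0.61 after 30 Gy and by 0.73 and 1.09 after 50 Gy. Samhd1, which breaks down deoxynucleotides and is abundant in myeloid cells, fell by 0.23 at 6 h and rose by 1.23 at day 3 after carbon ions. At 6 h and day 1 it fell by 0.51 and 0.64 after 30 Gy and by 0.91 and 0.83 after 50 Gy. At day 3 it rose by 0.33 after 30 Gy and 0.73 after 50 Gy. Nudt1, also measured here, fell at 6 h by 0.27 after carbon ions, 0.24 after 30 Gy and 0.62 after 50 Gy. At day 1 Nudt1 passed after 50 Gy alone (-0.13), and at day 3 it fell by 0.13, 0.15 and 0.30.

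The remaining genes of base excision repair, 25 measured of 27 listed, held both falls and rises, as did all genes tested. After carbon ions 9, 8 and 19 fell at 6 h, day 1 and day 3, where 19.5%, 16.6% and 41.8% of all genes fell. At the same times 6, 5 and 4 rose, where 21.04%, 25.5% and 26.4% of all genes rose. After 30 Gy gamma rays 9, 9 and 12 fell, beside 18.4%, 21.7% and 30.9% of all genes. There 7, 5 and 3 rose, beside 19.3%, 21.2% and 23.1% of all genes. After 50 Gy 10, 18 and 17 fell, beside 26.9%, 45.1% and 44.7% of all genes. There 7, 3 and 3 rose, beside 22.8%, 23.1% and 28.7% of all genes. At day 3 the share that rose was below that of all genes for each beam and dose. The median response of these 25 genes was -0.05, -0.11 and -0.28 after carbon ions.

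The deepest falls were those of the replicative polymerases and the flap nuclease, which base excision repair shares with DNA replication. At day 3 after carbon ions Pole fell by 1.31, Pole2 by 1.15, Fen1 by 1.05 and Pold2 by 1.02. Pold1 led at 6 h after carbon ions, at -0.63, and fell by 1.35 at day 3 after 50 Gy. Polb, the polymerase of the short repair patch, and Lig1, the replicative ligase, are named for their role after their values were seen. Polb rose by 0.13 at 6 h and 0.26 at day 3 after carbon ions and fell by 0.25 at day 1 after 50 Gy. Lig1 fell by 0.30, 0.35 and 0.39 after carbon ions.

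Neil2, which removes oxidised pyrimidines, rose in all 9 responses, by 0.28, 0.42 and 0.49 after carbon ions, 0.33, 0.33 and 0.50 after 30 Gy and 0.62, 0.65 and 0.81 after 50 Gy. In single tumours it was not uniform: at 6 h after carbon ions Neil2 stood at 0.89 in NFSa and at -0.34 in SCCVII. Mpg, the glycosylase for alkylated purines, rose by 0.36 and 0.26 at 6 h and day 1 after carbon ions and by 0.32 and 0.27 after 30 Gy. Pold4, a small subunit of polymerase delta, rose by 0.40 at 6 h after carbon ions. Parp2, which acts with Parp1 at breaks, fell by 0.73 at day 3 after carbon ions.

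**Figure D4:**
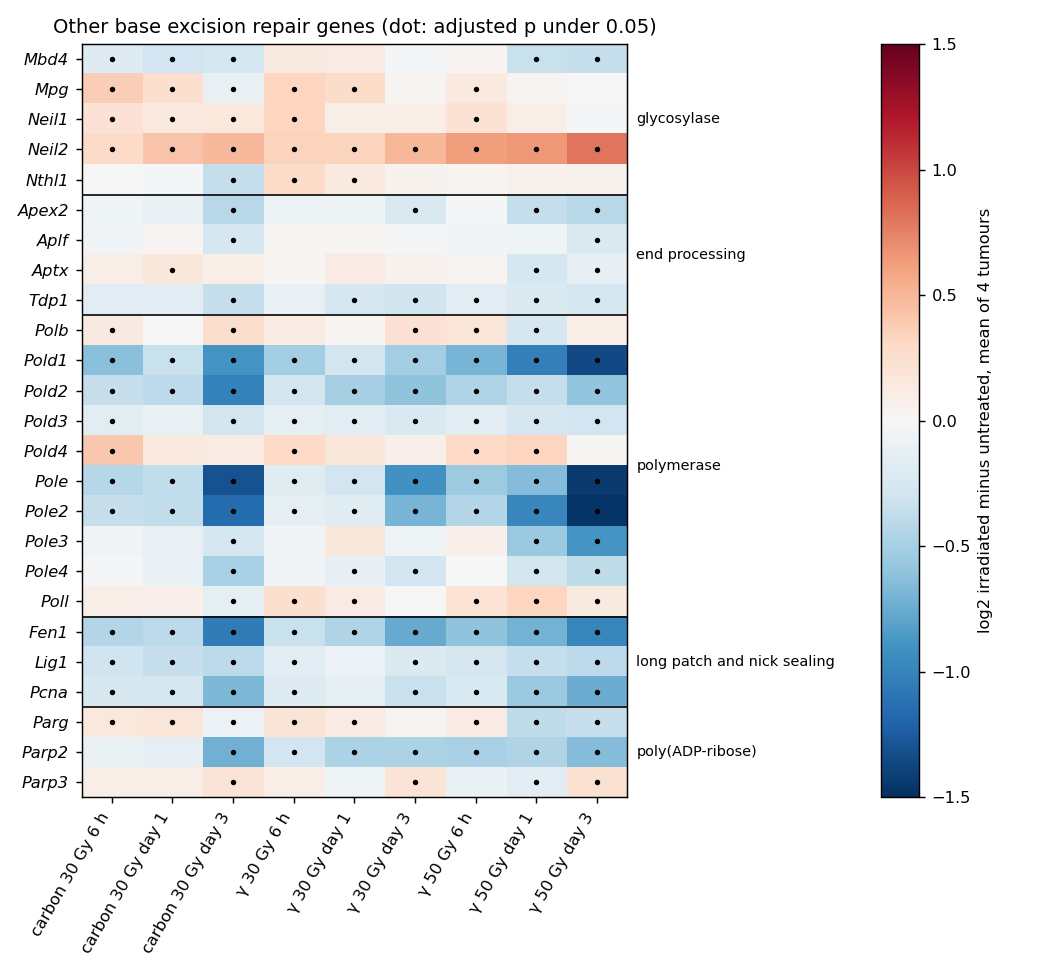
Responses (log2, mean of 4 tumours, colour) of 25 other base excision repair genes, ordered by step, in the 9 responses; a dot marks an adjusted p under 0.05. Neil2 is red in every column, and Pole, Pole2, Pold1, Pold2 and Fen1 are blue in every column, Pole and Pole2 darkest at day 3.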

How the data were processed

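Total RNA of 88 tumour samples was labelled with Cy5 and hybridised to CodeLink arrays, per the labels' protocols. The deposited values are normalised intensity per probe on a linear scale, 1 column per array. How the authors corrected background, scaled or filtered before deposit is not stated in those labels.

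Values at or below 0 were set as missing, and the rest were log2 transformed. Of 36227 probes, 21615 had 1 gene symbol, 681 several and 13931 none in the platform annotation, and symbols were updated by Entrez number (21487 matched). Each gene was read from its probe with the highest mean log2. Genes in the lowest 25% of mean log2, or measured on under 80% of arrays, were left out, which kept 13465 of 18067.

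A mean per group was fitted on all 88 arrays (44 residual degrees of freedom) with the empirical Bayes step of limma 3.58.1 in R 4.3.3. P-values came from these limma tests, were Benjamini-Hochberg adjusted over all genes tested, and passed under 0.05. Differences between tumours used the moderated F test. The fit was tested on simulated data. Array number limits the precision.

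The listed genes, gene lists and tests were chosen with earlier results of these data known. Named genes are all members, up to 4 other repair genes per comparison by largest change among those passing, up to 2 per context list (Polb, Lig1 and the p53 targets added), the 8 genes most like Ung and its nearest tested neighbours. Squamous, leukocyte and muscle markers were checked.

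Alternatives covered normalisation, offset, filters, probes, variance model, arrays in the fit, the replicate block, control arrays, arrays left out, and, added after seeing the data, NR-S1 left out. Promoter letters are from RefSeq (GRCm38.p6).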

Additional observations from a re-analysis of the deposited data

Results flagged for a closer look

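Responses of 6 genes differed between carbon ions and 30 Gy gamma rays by the limma test of the difference. Carbon ions minus gamma rays was -0.35 for Ung, 0.27 for Ogg1 and 0.49 for Parp1 at day 1. At day 3 it was -0.53 for Ung, 0.25 for Ogg1, -0.16 for Neil3, -0.47 for Apex1 and -0.25 for Xrcc1.

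Responses also differed between the 4 tumours by the moderated F test, and the gap between the highest and the lowest tumour is given on the log2 scale. At 6 h after carbon ions the gap was 0.76 for Smug1, 0.77 for Ogg1, 0.53 for Apex1, 0.58 for Xrcc1 and 0.85 for Parp1 (limma adjusted p up to 8.46e-03). At day 1 it was 1.20 for Ung, 0.66 for Smug1, 0.89 for Ogg1, 0.60 for Mutyh, 0.55 for Neil3, 0.52 for Apex1, 0.45 for Xrcc1, 0.63 for Lig3 and 1.79 for Parp1 (limma adjusted p up to 0.0344). At day 3 it was 0.88 for Ung, 0.82 for Smug1, 1.53 for Ogg1, 0.93 for Mutyh, 0.68 for Neil3, 0.61 for Apex1, 0.65 for Xrcc1 and 0.65 for Parp1 (limma adjusted p up to 2.19e-03).

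At 6 h after 30 Gy gamma rays the gap was 0.51 for Smug1, 0.54 for Neil3, 0.47 for Lig3 and 1.57 for Parp1. At day 1 it was 1.17 for Ung, 0.55 for Smug1, 0.64 for Mutyh, 1.02 for Neil3, 0.62 for Apex1, 0.47 for Xrcc1, 0.48 for Lig3 and 1.99 for Parp1. At day 3 it was 1.28 for Ung, 0.69 for Mutyh, 0.95 for Neil3, 0.81 for Apex1, 0.59 for Lig3 and 1.32 for Parp1. Parp1 at day 1 had the widest gap of any flagged response (limma adjusted p = 1.29e-15), between -1.84 in #8520 and 0.15 in NR-S1.

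At 6 h after 50 Gy the gap was 0.45 for Smug1, 0.74 for Ogg1, 0.80 for Mutyh, 0.91 for Neil3, 0.77 for Apex1, 0.64 for Xrcc1, 0.92 for Lig3 and 1.43 for Parp1. At day 1 it was 1.10 for Ung, 0.76 for Smug1, 0.51 for Mutyh, 0.84 for Neil3, 1.23 for Apex1 and 1.11 for Lig3. At day 3 it was 1.04 for Ung, 0.34 for Smug1, 0.51 for Ogg1, 0.61 for Mutyh, 0.52 for Neil3, 1.23 for Apex1, 0.55 for Xrcc1, 0.91 for Lig3 and 0.57 for Parp1. At day 1 and day 3 after 50 Gy the arrays of SCCVII and #8520 stood apart from the rest, and their part in these gaps was not tested.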

How the results depend on the processing

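The falls of Ung at day 1 and day 3 kept their direction and passed under every alternative in which Ung was tested, the replicate block and each array left out included; with the replicate block the fall at day 3 after carbon ions stayed at 1.65 (limma adjusted p = 1.09e-20). For the counts of the 8 genes passing, a count within 1.5 times the reported one was taken as the same. By that measure, and with the day 1 and day 3 responses of Ung judged by direction and threshold, 272 values were the same and 22 counts moved under the alternatives. With 1 array left out none of 384 moved by that much, though counts did shift, from 3 to 5 at 6 h, 2 to 3 at day 1 and 7 to 8 at day 3 after carbon ions, and from 4 to 6 between doses at day 3. At 6 h, where Ung was not tested, its values without NR-S1 were -1.65 after 30 Gy, -2.15 after 50 Gy and -0.24 between beams, from -1.51, -1.95 and -0.36. Leaving out the dimmest 50% of genes kept 5 of the 8 genes and no Ung: 1 and 5 then passed at day 1 and day 3 after carbon ions, 3 and 4 after 30 Gy, 4 and 5 after 50 Gy, and 1 between beams at day 1, while 3, 5 and 4 differed between tumours after carbon ions and 5 and 5 at 6 h and day 3 after 50 Gy. Quantile normalisation gave 4 genes at day 1 after carbon ions, 1 between beams at day 1, 5 between doses at day 1 and 5 between tumours at day 3 after 50 Gy. Untreated arrays of both arms as control gave 4 at day 1 after carbon ions. Without NR-S1, 6 passed there and 1 between beams at 6 h. Between doses at day 3 the mean of all probes gave 3, and over NR-S1 and NFSa 0 passed at day 1 and 0 at day 3. Over 68 pairs of groups the correlation of same-numbered deviations ran from -0.19 to 0.39, with a median of 0.015, and 16 were above 0.1. In the gamma arm of NFSa 9 of 11 were above 0.1 and the lowest was -0.11. The highest of all, 0.39, was in the gamma arm of SCCVII. The main tests did not use the numbers as pairs, and the replicate block, given next, did. The replicate block moved no count by over 1.5 times and ended 2 calls, those of Mutyh at 6 h after carbon ions (-0.20) and at day 1 after 50 Gy (-0.16), while Lig3 passed between beams at day 3 (-0.18). The Ung dose difference at day 1 passed without array 3 of NFSa after 30 Gy (-0.14).

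Single genes reversed as follows. Over NR-S1 and NFSa, 50 minus 30 Gy was 0.16 for Apex1 and -0.18 for Parp1 at day 1, and -0.069 for Mutyh, 0.048 for Xrcc1 and -0.21 for Parp1 at day 3, and the 50 Gy response at day 1 was 0.053 for Apex1 and 0.019 for Lig3. Under quantile normalisation, 50 minus 30 Gy was 0.14 for Neil3 and 0.19 for Xrcc1 at day 1 and 0.0055 for Xrcc1 at day 3, and Parp1 at day 1 after 50 Gy was 0.074. With the mean of all probes, which brings in dim probes, Xrcc1 was 0.22 at day 3 after 50 Gy, 0.20 between beams at day 3 and 0.47 between doses at day 3, and Lig3 was 0.13 between doses at day 3. Apart from the left-out genes and probes, the cause was not tested. A change of sign between values that both failed the test was not counted. With 2 arrays a group, small differences rest on the spread shared over all groups.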
